A study of Homo sapiens with 6 samples.

Results

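The heat shock proteins and their DNAJ (HSP40) partners were followed in RH36 cells that carried either a miR-27a precursor or a negative precursor. Members were all probes whose gene name in the array files starts with HSPA, HSPB, HSPD, HSPE, HSPH or HSP followed by a digit, or with DNAJA, DNAJB or DNAJC followed by a number. They came to 108 probes with 65 gene names, of 41000 probes with 30484 gene names on the array. RH36 is an established line of embryonal rhabdomyosarcoma, a tumor of muscle-like cells, and it lacks the PAX3/FOXO1 fusion. One group of 3 arrays held RNA of cells transfected with pre-miR-27a and the other group of 3 arrays held RNA of cells transfected with the negative pre-control, both with the same transfection reagent. A precursor dose of 10 nM and, for cells with pre-miR-27a, a time of 48 hours stand in the labels, whereas the study's methods give other values, so neither is certain. The transfection was transient, no other cell line was profiled, and the labels call the replicates biological.

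Heat shock proteins are molecular chaperones that bind unfolded or unstable proteins. HSP70 proteins hold and release their clients in a cycle driven by ATP, the DNAJ proteins deliver clients and start that cycle, and HSP110 proteins and other cofactors restart it by exchanging the nucleotide. HSP90 acts later, on kinases, steroid receptors and other signalling proteins that are nearly folded, HSP60 with HSP10 forms the folding chamber of mitochondria, and small heat shock proteins hold unfolded proteins without ATP, several of them chiefly in muscle. Some members are made at all times, and others are induced when the transcription factor HSF1 binds heat shock elements in their promoters or, for chaperones of the endoplasmic reticulum (ER), by the unfolded protein response.

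The main strand of the transfected miRNA is shown because it defines the comparison, with its seed (bases 2 to 8), the part that pairs with target transcripts, in capitals. It is encoded on the minus strand at chr19:13836447-13836467 (GRCh38.p14, sequence from RefSeq).
hsa-miR-27a-3p: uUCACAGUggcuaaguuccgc

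All values below are quantile-normalized log2 signals of single probes, and a log2 fold change is the mean of the pre-miR-27a arrays minus the mean of the pre-control arrays. Each difference comes with its standard error (SE) and a p from limma, adjusted over all probes kept (Benjamini-Hochberg), and a probe is called higher or lower where its adjusted p was under 0.05. Of the 108 probes, 106 with 64 gene names were kept, since a probe was removed when more than 1 array gave no value. DNAJB8 (its one probe) and the third probe of HSPA1A were removed in this way. On all 6 arrays 96 of the kept probes were well above background, 7 were so on 1 to 5 arrays, and 3 (HSPA1L, DNAJB7 and the first DNAJC6 probe) on none. Probes of a gene are numbered from the 5′ end of the gene, and 29 genes had more than 1 kept probe. A gene is represented by its brightest kept probe unless another is named.

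Slide 1 held the pre-control arrays and slide 2 the pre-miR-27a arrays, and in every result below the slide cannot be told apart from the transfection. In the control group 69.9% to 73.9% of spots were well above background, and 74.1% to 78.0% in the other. Median local background stood at 74.5 to 76 intensity units with the pre-control and at 52.5 to 53 with pre-miR-27a. The muscle markers MYOD1, MYOG, DES, CHRNA1, CDH15 and MYH3 were well above background on all 6 arrays, while MYF5 was not on any. Of 11 markers of other cell types, EPCAM, CDH1, PTPRC, PECAM1, SYP and PLIN1 were on none, KRT19 and CDH5 were on 5 and 3, and CD3E, GFAP and ADIPOQ were on all 6. Of these 11, CD3E (−0.44) and ADIPOQ (−0.95) were called lower on pre-miR-27a arrays and none higher, and their part in the results below was not tested. In bulk RNA, fewer cells with a transcript and less of it per cell cannot be told apart.

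By limma, 7 of the 106 chaperone probes were called higher and 3 lower, 9.43% in all, where 7.83% of all probes were called (3.95% higher and 3.88% lower). With the brightest probe of each gene, 1 gene was called higher and 3 lower, that is 6.25% of 64 genes against 7.4% of all gene names (3.07% higher and 4.33% lower). The groups of arrays did not overlap for 22 probes that were higher and 17 that were lower, 36.8% of members beside 32.5% of all probes (14.8% higher and 17.8% lower). Both shares of calls were close to those over the whole array. The median log2 fold change was 0.01 over the 64 genes and −0.04 over all gene names. For 57 of the 64 genes the log2 fold change was smaller than 0.5 in size.

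The replicate numbers were taken to pair the arrays, which the labels do not state. The study's results call its own test (SAM) paired, without saying which arrays form a pair, and its methods mention no pairs. The counts in the paragraph above leave pairing out. With the number fitted as a block 12 chaperone probes were called higher and 6 lower, 17.0% beside 14.9% of all probes (7.24% higher and 7.62% lower). By brightest probe these were 5 genes higher and 3 lower, beside 5.97% and 8.1% of all gene names. The calls depended on single arrays. Without pre-control replicate 1, 3 chaperone probes were called, and without any other single array 0 were, although 23 to 29 had an unadjusted p under 0.05 (32 with every array). Over all probes the number of calls was 2856 with every array, 1276 without pre-control replicate 1, 81 without pre-control replicate 3 and 0 without any of the others. With 3 arrays a group, the smallest p of an exact two-sided permutation test is 0.1.

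**Figure D1:**
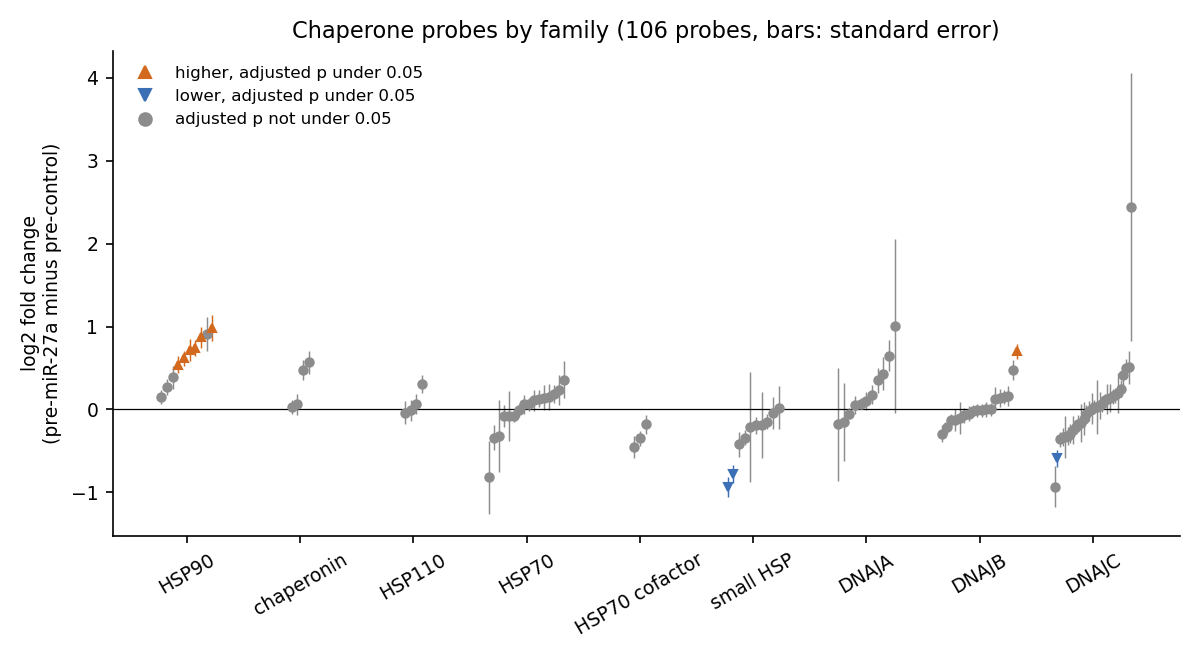
Log2 fold change of the 106 kept chaperone probes (y axis, pre-miR-27a minus pre-control, 3 arrays a group), in columns by family and ordered by value within each, with bars for the standard error and triangles for probes with an adjusted p under 0.05. Of the 7 probes called higher 6 are HSP90 probes, all 10 HSP90 probes are above 0, and the probe at 2.44 is a dim one of DNAJC6. Over the whole array 3.95% of probes were called higher. The HSP70 cofactor column also holds HSPBAP1, which binds HSPB1 and is no chaperone itself.

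The HSP90 genes were the family with the most calls. Of their 10 probes 6 were called higher, beside 3.95% of all probes, and none lower. In 9 the pre-miR-27a arrays lay above the pre-control arrays without overlap, beside 14.8% of all probes. All 10 had a log2 fold change above 0. The median over the 10 probes was 0.67, but by brightest probe the 4 gene names ran from 0.15 to 0.74 and only the pseudogene HSP90AB3P was called. Probes of a gene share its transcripts, and the members of this family share sequence, so these probes are not separate observations.

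HSP90AA1, the heat-inducible cytosolic HSP90, was measured by 4 probes (NM_005348), of which 3 were called higher. Its first probe, on chromosome 14 from 101619916 to 101619975 (hg18), read 13.59, 13.59 and 13.48 on the pre-control arrays and 14.28, 14.84 and 14.49 on the pre-miR-27a arrays. No value of one group reached the other, and the log2 fold change was 0.98 (SE 0.16, limma adjusted p = 0.0266), or 1.97-fold. The second probe went from 14.71, 14.92 and 15.00 to 15.63, 15.96 and 15.64, a difference of 0.87 (SE 0.13, limma adjusted p = 0.0253). The last probe, nearest the 3′ end, gave 0.72 (SE 0.13, limma adjusted p = 0.0376). The third and brightest probe read 15.60, 15.93 and 15.88 on the pre-control arrays and 16.06, 16.40 and 16.13 on the pre-miR-27a arrays. These groups did not overlap either, but the log2 fold change was 0.39 (SE 0.14) and the limma adjusted p was 0.158. Scaled to the 75th percentile of each array in place of quantile normalization, the second and last probes were at 0.71 and 0.61 and lost their calls (limma adjusted p = 0.0514 and 0.0673).

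HSP90AB1, the constitutive cytosolic HSP90, was also higher at its 5′ and middle probes (NM_007355, chromosome 6, hg18). The first probe, from 44325427 to 44325486, read 12.97, 12.80 and 12.90 on the pre-control arrays and 13.50, 13.62 and 13.41 on the pre-miR-27a arrays. The groups were apart, with a log2 fold change of 0.62 (SE 0.09, limma adjusted p = 0.0246). The second probe was at 0.54 (SE 0.10, limma adjusted p = 0.0378). The third and brightest probe, at the 3′ end, went from 15.17, 15.18 and 15.45 to 15.56, 15.52 and 15.54. Its lowest pre-miR-27a value was above its highest pre-control value, but the difference of 0.27 (SE 0.10) was not called (limma adjusted p = 0.180). The mean of all probes of a gene, instead of the brightest, was called for both cytosolic genes, at 0.74 for HSP90AA1 and 0.48 for HSP90AB1 (limma adjusted p = 0.0385 and 0.0396).

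HSP90AB3P, a pseudogene of HSP90AB1 with 1 probe, had 12.47, 12.45 and 12.45 on the pre-control arrays and 13.22, 13.33 and 13.04 on the pre-miR-27a arrays. The 3 control values were nearly equal, and the log2 fold change was 0.74 (SE 0.10, limma adjusted p = 0.0200). Transcripts of HSP90AB1 may hybridize to this probe, and the part of each gene in its signal is uncertain. HSP90B1, the HSP90 of the ER (GRP94), differed between its probes. Its first probe went from 12.99, 12.54 and 12.42 to 13.67, 13.73 and 13.29, a log2 fold change of 0.91 (SE 0.20). It was just outside the threshold (limma adjusted p = 0.0518) and inside it with the replicate block (adjusted p = 0.0371). The second and brightest probe read 16.85, 16.82 and 16.84 on the pre-control arrays and 17.09, 17.03 and 16.83 on the pre-miR-27a arrays. Those groups overlapped, and the difference was 0.15 (SE 0.09, limma adjusted p = 0.402), or −0.04 with 75th percentile scaling.

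**Figure D2:**
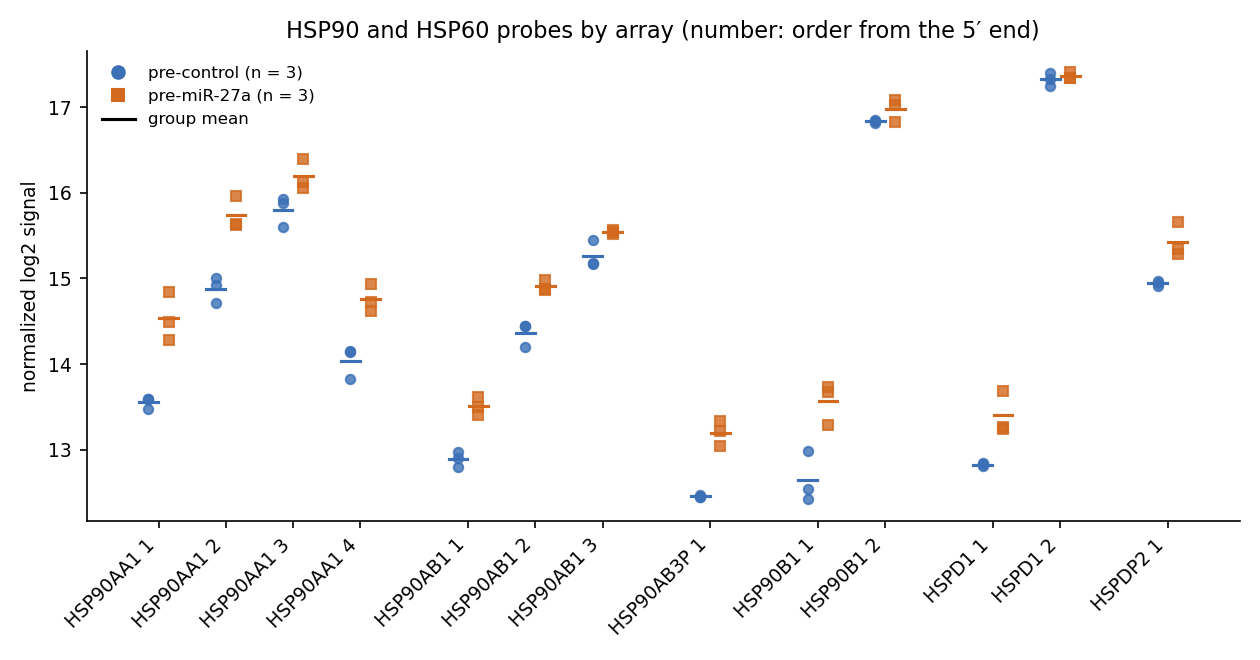
Normalized log2 signal (y axis) on each array for every probe of the HSP90 and HSP60 genes and pseudogenes (x axis, numbered from the 5′ end), with points for single arrays, 3 a group, and short lines for group means. The groups are apart at every HSP90 probe except the second of HSP90B1, and the second HSPD1 probe lies at 17.33 and 17.36 on average. Signals of different probes are not comparable as levels.

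HSP60 followed a like pattern without a call. The first probe of HSPD1, which codes for HSP60, read 12.81, 12.83 and 12.84 on the pre-control arrays and 13.24, 13.69 and 13.27 on the pre-miR-27a arrays, a log2 fold change of 0.57 (SE 0.14, limma adjusted p = 0.0680). Its brightest probe, at the 3′ end, read 17.25, 17.33 and 17.40 and then 17.34, 17.41 and 17.34. The groups overlapped there, and the difference was 0.03 (SE 0.08, limma adjusted p = 0.841). The probe named for the HSP60 pseudogene HSPDP2 was at 0.48 (SE 0.12, limma adjusted p = 0.0692), with groups that did not overlap, and it may also be bound by HSPD1 transcripts. HSPE1, which codes for the HSP10 lid of the same chamber, was at 0.06 (SE 0.13), and its groups overlapped. With 75th percentile scaling the brightest HSPD1 probe was at −0.17 and HSPE1 at −0.12.

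No HSP70 or HSP110 probe was called in either direction, of 16 and 4 probes, where 7.83% of all probes were called. HSPA1A, the major heat-induced HSP70, read 7.98, 8.43 and 8.48 on the pre-control arrays and 8.45, 8.58 and 8.31 on the pre-miR-27a arrays. The groups overlapped, with a difference of 0.15 (SE 0.16, limma adjusted p = 0.628), and without pre-control replicate 1, its lowest array, the difference was −0.01. HSPA1B, its nearly identical copy, has no probe under that name, so transcripts of both may be in this signal. HSPA6, an HSP70 that is made almost only under strong stress, read 6.56, 7.56 and 6.84 and then 6.66, 7.29 and 6.78. Replicate 2 was the highest array in both groups, and the difference was −0.08 (SE 0.30, limma adjusted p = 0.906).

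HSPA8, the constitutive HSC70, had 17.34, 17.40 and 17.41 on the pre-control arrays and 17.25, 17.33 and 17.33 on the pre-miR-27a arrays. Its difference was −0.08 (SE 0.07), and its 4 probes ran from −0.08 to 0.13. HSPA9, the mitochondrial HSP70, was at 0.06 (SE 0.08). HSPA2, a testis-enriched HSP70, was at −0.82 with a SE of 0.44, and it was well above background on 2 pre-control arrays and 1 pre-miR-27a array, so its level was hardly measured. HSPA5, the ER HSP70 known as BiP, was at 0.14 (SE 0.15) by its first probe, with overlapping groups. Its second probe was at −0.34 (SE 0.15, limma adjusted p = 0.224) and was called lower with the replicate block (adjusted p = 0.0406).

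HSPH1, a heat-inducible HSP110, had a difference of −0.01 (SE 0.13), and HSPA4, a constitutive one, had −0.04 (SE 0.14). HSPA4L, a further HSP110, was at 0.31 (SE 0.11, limma adjusted p = 0.159) and was called higher with the replicate block (adjusted p = 0.0465). Its groups did not overlap, at 10.27, 10.17 and 10.00 against 10.58, 10.45 and 10.34. HSPBP1, which exchanges the nucleotide of HSP70, was lower on every pre-miR-27a array at both probes, by −0.35 and −0.45, and the first of these was called with the block (adjusted p = 0.0482, against 0.0748 without it, from limma). HSPBAP1, which binds HSPB1 and is no chaperone itself, was taken up by the naming rule and was at −0.18 (SE 0.11).

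The small heat shock proteins held 2 of the 3 probes called lower. These were 2 of their 10 probes, beside 3.88% of all probes, and 2 of their 7 genes, beside 4.33% of all gene names. In 6 of the 7 genes the log2 fold change was below 0, beside 56.3% of all gene names. HSPB9, a small heat shock protein of the testis, read 8.55, 8.90 and 8.85 on the pre-control arrays and 7.87, 7.78 and 7.87 on the pre-miR-27a arrays. The groups were well apart, with a log2 fold change of −0.93 (SE 0.12, limma adjusted p = 0.0190), and the second HSPB9 probe, missing on 1 pre-control array, was at −0.42 (limma adjusted p = 0.183). HSPB6 (HSP20), found mainly in muscle, read 6.67, 7.01 and 6.75 and then 5.98, 6.10 and 6.02. It fell by 0.78 on the log2 scale (SE 0.11, limma adjusted p = 0.0228), but after normexp background correction the value was −0.39 (limma adjusted p = 0.0345). The signal of HSPB6 was near the local background of the slides, which was lower on the pre-miR-27a arrays, and the part of this in the result was not tested. Of all chaperone calls, those of HSPB6 and HSPB9 were the ones that passed with a single array left out, in 1 of the 6 such fits each (without pre-control replicate 1, limma adjusted p = 0.0437 and 0.0424), in which the first HSP90B1 probe passed as well (adjusted p = 0.0493).

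HSPB1 (HSP27), which is heat-inducible and found in most tissues, was lower at all 3 probes, by −0.34, −0.19 and −0.15 from the first to the third. The first probe read 15.69, 15.75 and 15.85 and then 15.40, 15.34 and 15.53. Its groups did not overlap, and it was called with the replicate block (adjusted p = 0.0455) but not without it (limma adjusted p = 0.0827). The HSPB1 probes lie within a short stretch, and the first and second overlap.

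The other muscle members varied more between replicates than between groups. HSPB3 read 11.75, 12.31 and 13.59 on the pre-control arrays and 11.60, 11.98 and 13.44 on the pre-miR-27a arrays. Replicate 3 was the highest and replicate 1 the lowest in both groups, and the difference was −0.21 with a SE of 0.66. HSPB7, a cardiac and skeletal muscle protein, read 6.58, 6.32 and 7.33 and then 6.21, 6.18 and 7.28, a difference of −0.19 (SE 0.40). HSPB8, which works with the cochaperone BAG3 in muscle, read 9.09, 8.86 and 9.59 and then 8.93, 9.07 and 9.59, and HSPB2 read 14.79, 14.65 and 15.17 and then 14.84, 14.57 and 15.09. In all 4 genes replicate 3 was the highest array of each group, and their differences, 0.02 for HSPB8 and −0.04 for HSPB2 among them, changed sign when single arrays were left out, which also breaks a pair. Within pairs HSPB3 was lower in all 3, by −0.15, −0.33 and −0.15 (adjusted p = 0.122 with the replicate block, limma adjusted p = 0.886 without it), and so was HSPB7, by −0.37, −0.14 and −0.05 (0.219 with the block, 0.818 without it). HSPB2 and HSPB8 went both ways within pairs. MYOG, the muscle regulator myogenin, was at −0.95 (limma adjusted p = 0.140) and MYOD1 at −0.45 (limma adjusted p = 0.0787), and whether muscle state had a part in the small heat shock protein values was not tested.

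**Figure D3:**
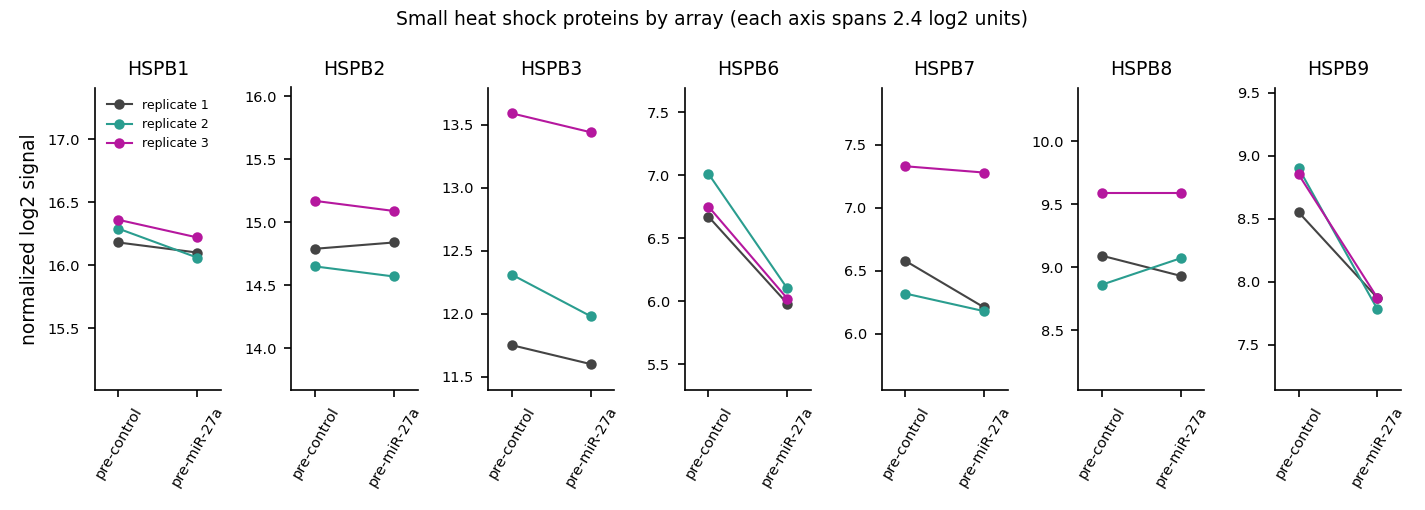
Normalized log2 signal (y axis, a separate range of 2.4 log2 units for each gene) of the brightest probe of the 7 small heat shock protein genes on each array, with a line joining the arrays of the same replicate number. HSPB6 and HSPB9 are lower in pre-miR-27a on every line, while HSPB2, HSPB3, HSPB7 and HSPB8 are highest in replicate 3 of both groups.

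Among the DNAJ genes, 59 probes with 35 gene names were kept. Of these probes 1 was called in each direction, beside 3.95% of all probes called higher and 3.88% lower. DNAJB14, a chaperone of the ER membrane, read 8.96, 8.85 and 9.04 on the pre-control arrays and 9.63, 9.56 and 9.76 on the pre-miR-27a arrays at its first probe. The groups were apart, with a log2 fold change of 0.70 (SE 0.09, limma adjusted p = 0.0210). Its second and brightest probe was at 0.48 (SE 0.12, limma adjusted p = 0.0749) and was called with the replicate block (adjusted p = 0.0488). DNAJC4, a little studied J protein, read 9.61, 9.60 and 9.60 and then 9.07, 8.83 and 9.12. It fell by 0.59 on the log2 scale (SE 0.10, limma adjusted p = 0.0302), and its dimmer probe was at −0.33 (limma adjusted p = 0.483). With 75th percentile scaling DNAJC4 was just outside the threshold (limma adjusted p = 0.0502).

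The partners that serve cytosolic HSP70 showed small differences. DNAJB1, the main heat-inducible one, read 12.89, 13.22 and 12.94 and then 13.16, 13.29 and 13.09, a difference of 0.16 (SE 0.12, limma adjusted p = 0.458) with overlapping groups. DNAJA1, also heat-inducible, was at 0.18 (SE 0.12), and its 3 probes ran from 0.05 to 0.18. DNAJA2, its constitutive relative, was at −0.05 (SE 0.07). DNAJB4 was at 0.13 by its brightest probe and −0.13 by the other. DNAJB6, which prevents aggregation of polyglutamine proteins, was at 0.00 by its brightest probe, 0.15 and 0.14 by the probes on its 5′ side, and −0.29 (SE 0.10, limma adjusted p = 0.147) by the probe named for another of its transcripts (NM_058246).

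DNAJC17, a nuclear J protein tied to splicing, was at 0.50 (SE 0.11, limma adjusted p = 0.0558), with no overlap between 8.08, 7.87 and 7.91 on one side and 8.63, 8.35 and 8.39 on the other, and it was called with the replicate block (adjusted p = 0.0334). DNAJA5, now named DNAJC21 and known for a part in ribosome assembly, was at 0.35, 0.65 (1 pre-miR-27a array missing) and 0.43 by its 3 probes, and the first was called with the block (adjusted p = 0.0480, against 0.217 without it, from limma). DNAJC13, which acts on endosomes, was at −0.36 (SE 0.09, limma adjusted p = 0.0754), and every pre-miR-27a array was below every pre-control array. These 3 genes were chosen after their values were seen. The largest log2 fold change of the set, 2.44 for DNAJC6, came from 1 pre-miR-27a array at 7.52 beside 2.12 on another and no value on the last, against 2.19 to 2.76 on the pre-control arrays. The probe was well above background on that 1 array alone and the limma adjusted p was 0.434, so no fold is given.

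Heat-inducible members were set against constitutive ones. The heat-inducible list held 13 genes, of which 12 had a kept probe, and 0 were called by limma in either direction, with 2 of the 12 at an unadjusted p under 0.05. Their median log2 fold change was 0.09, from −0.15 for HSPB1 to 0.39 for HSP90AA1, and 9 of 12 were above 0. The constitutive list had 32 kept genes of 38, of which 0 were called higher and 1 lower (DNAJC4). Their median was 0.00, with 16 genes above 0 and 16 below, and 7 had an unadjusted p under 0.05. These counts include 3 dim genes, and the extremes of the list are HSPA2 (−0.82) and DNAJC6 (2.44). HSPA1L was well above background on no array, DNAJC6 on 1 pre-miR-27a array, and HSPA2 on 2 pre-control arrays and 1 pre-miR-27a array. Over all gene names the median was −0.04, 43.7% were above 0, 7.4% were called by limma, and 23.8% had an unadjusted p under 0.05. With the replicate block the calls were 1 higher and 0 lower for the heat-inducible list and 2 higher and 1 lower for the constitutive list. Of all gene names 5.97% were called higher and 8.1% lower with the block.

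The difference between both lists was small beside the spread of single arrays. Centred on each gene's mean over the 6 arrays, the median heat-inducible gene was at −0.20, 0.02 and 0.05 on the pre-control arrays and 0.00, 0.14 and 0.04 on the pre-miR-27a arrays. The lowest of the 6 was pre-control replicate 1, and the groups overlapped. Without that array the median log2 fold change of the list was −0.01. The median constitutive gene was at −0.03, 0.04 and 0.02 and then −0.01, −0.03 and 0.03, with no array apart from the others. The choice of probe moved these medians as well. With the 5′-most probe of each gene the heat-inducible median was 0.05 and the constitutive median 0.06, so the order of the lists turned, and with the 3′-most probe they were 0.08 and 0.01.

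**Figure D4:**
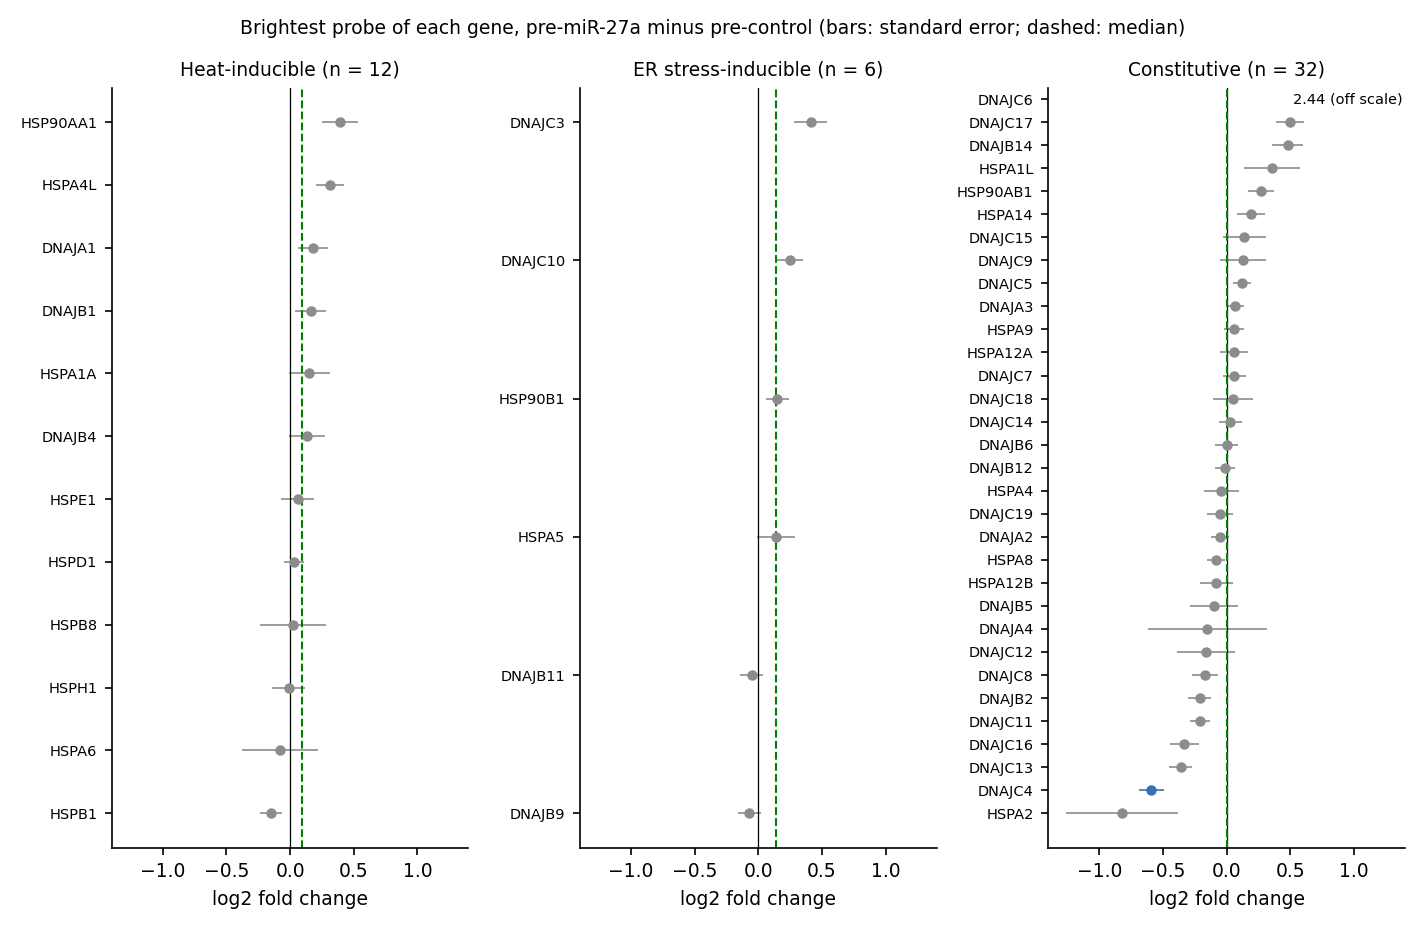
Log2 fold change of the brightest probe (x axis, pre-miR-27a minus pre-control, bars for the standard error) of each heat-inducible, ER stress-inducible and constitutive chaperone gene, with a dashed line at the median of each list (0.09, 0.14 and 0.00). DNAJC4 (blue) is the one gene called in the 3 lists, HSP90AA1 at 0.39 and DNAJC3 at 0.41 are the highest of theirs, and DNAJC6 at 2.44 lies off the scale.

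The ER chaperones were read in the same way. Of 6 members that the unfolded protein response induces, 0 were called by limma, with 2 at an unadjusted p under 0.05, and the median log2 fold change was 0.14. Of all gene names 7.4% were called and 23.8% had an unadjusted p under 0.05. DNAJC3 (P58IPK), which serves BiP in the ER, read 10.13, 9.92 and 9.75 on the pre-control arrays and 10.37, 10.45 and 10.21 on the pre-miR-27a arrays. Its groups were apart, at a difference of 0.41 (SE 0.13, limma adjusted p = 0.119). DNAJB9 (ERdj4) and DNAJB11 (ERdj3), both cochaperones of BiP, were at −0.07 and −0.05 (SE 0.09 for each). Over the 10 ER members measured the median was 0.08, and over the 7 mitochondrial ones 0.06, with 0 called in either list (3 and 1 at an unadjusted p under 0.05).

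Genes of the ER stress response outside the naming rule were also read, among them HYOU1, which the cochaperone list below holds as well. Of 25 such genes 0 were called higher and 2 lower by limma, which is 8.0% lower beside 4.33% of all gene names. Of the 25, 16 (64.0%) were below 0, beside 56.3% of all gene names, and their median was −0.08 beside −0.04. EDEM1, which directs misfolded glycoproteins to degradation, read 9.65, 9.68 and 9.59 and then 9.20, 9.20 and 9.12, a log2 fold change of −0.47 (SE 0.07, limma adjusted p = 0.0261). PPP1R15A (GADD34), which ends the translation block of the stress response, read 9.95, 9.72 and 10.10 and then 9.28, 9.08 and 9.25. It fell by 0.72 on the log2 scale (SE 0.13, limma adjusted p = 0.0324). With the replicate block 5 of the 25 genes were called lower, beside 8.1% of all gene names, and 0 higher. The 5 include the stress-induced factor DDIT3 (CHOP) at −0.44 and the lectin chaperone CALR at −0.32 (adjusted p = 0.0413 and 0.0487 with the block).

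The cochaperone list showed no call by limma in 43 genes measured of 44, beside 7.4% of all gene names. The list joins regulators and cochaperones of HSP70 and HSP90 with other chaperones, namely TCP1, CCT2 to CCT8, TRAP1, HYOU1, SERPINH1 and CRYAB. TCP1 and CCT2 to CCT8 were all above 0, from 0.04 for CCT7 to 0.26 for CCT6A. The counts below are therefore not of HSP70 and HSP90 partners alone. An unadjusted p under 0.05 was found for 7 of the 43, beside 23.8% of all gene names. Of the 43, 31 were above 0, beside 43.7% of all gene names, and 27.9% were below 0, beside 56.3%. Their median was 0.06 beside −0.04. HSF1, the main heat shock factor, was at 0.05 (SE 0.09), and HSF2 at 0.25 (SE 0.12, limma adjusted p = 0.281). With the block 1 was called, which is 2.33% lower beside 8.1% of all gene names. It was the small heat shock protein CRYAB at −0.58 (adjusted p = 0.0375, against 0.293 without it). Among cochaperones of HSP90, which like HSP90AA1 and HSP90AB1 were not called by their brightest probes, the values were 0.17 for AHSA1, which stimulates HSP90, 0.04 for STIP1, which links it to HSP70, 0.18 for PTGES3 (p23) and −0.20 for CDC37, which brings kinases. These 4 were chosen after their values were seen.

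Promoters were searched for the elements through which heat and ER stress act, and the matches are shown because genes with and without a call carry them. The heat shock element was taken as GAANNTTCNNGAA on both strands, which is 3 alternating units, within the 250 bases before each RefSeq start (GRCh38.p14). It was found in 6 of 58 member genes with a promoter in the RefSeq table (6 of 78 starts, 7.69%) and in 0.441% of 35116 promoters of all genes. HSP90AA1, HSPD1 and HSPA6 of these are on the heat-inducible list, and HSP90AB1, HSPA8 and DNAJB6 are on the constitutive list. Every fixed base had to match, so imperfect or more distant elements were missed. A gene without a match here, such as most of the heat-inducible list, may still carry an element. The ER stress element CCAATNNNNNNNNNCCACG was found in 2 member genes (2.56% of starts) and in 0.074% of all promoters. Capitals mark the match in the windows below, given on the strand of the gene, and overlapping matches are joined.
HSP90AA1, chr14:102087111-102087140, minus strand: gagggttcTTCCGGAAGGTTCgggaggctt
HSP90AB1, chr6:44247770-44247799, plus strand: ggagcaggTTCTGGAAGATTCatgggctcc
HSP90AB1, chr6:44247823-44247852, plus strand: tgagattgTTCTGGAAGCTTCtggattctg
HSPD1, chr2:197500061-197500090, minus strand: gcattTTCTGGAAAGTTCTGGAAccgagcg
HSPA8, chr11:123062345-123062374, minus strand: gcgagcttGAAAGTTCCAGAAcgctgcggt
HSPA8, chr11:123062170-123062199, minus strand: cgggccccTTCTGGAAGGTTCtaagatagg
HSPA6, chr1:161524458-161524487, plus strand: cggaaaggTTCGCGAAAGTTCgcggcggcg
DNAJB6, chr7:157336865-157336894, plus strand: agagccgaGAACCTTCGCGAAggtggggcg
HSPA5, ER stress element, chr9:125241385-125241414, minus strand: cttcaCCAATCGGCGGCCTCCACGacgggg
HSP90B1, ER stress element, chr12:103930211-103930240, plus strand: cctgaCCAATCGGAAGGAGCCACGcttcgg
HSP90B1, ER stress element, chr12:103930316-103930345, plus strand: gggtgCGTGGTGCGGCGCGATTGGtgggtt

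The 6 genes with a heat shock element differed among themselves. HSP90AA1 and HSP90AB1 had 5 called probes between them, all higher. HSPD1 was at 0.57 by 1 probe and 0.03 by the other. HSPA8, with a pair of such elements, HSPA6 and DNAJB6 had no called probe, and their brightest probes were between −0.08 and 0.00. Of the pair with an ER stress element, HSP90B1 was called by 1 probe with the replicate block and higher, and HSPA5 by 1 probe with the block and lower. A match in this window is a description of the sequence and does not show that a factor bound there.

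The values of a gene depended on which of its probes was read. Of the 29 genes with more than 1 kept probe, the probes of 18 all went the same way and those of 11 went both ways. In 25 genes with at least 2 probes well above background on all arrays, the 5′-most probe had the higher log2 fold change in 15 (60.0%), against 51.4% of 5282 genes over the whole array, and the median difference was 0.10 against 0.01. The 5′ probe was higher by more than 0.5 in 3 of the 25 genes (HSP90B1, HSPD1 and DNAJC16), or 12.0%, against 10.5% of all genes, and the 3′ probe by as much in 1 (HSPB9), or 4.0%, against 6.13%. The dimmest probe changed more than the brightest in 16 of 25 genes (64.0%), against 59.6% of all. Across the array the standard deviation of log2 fold changes was 0.38 for probes with a mean log2 signal of 8 to 10, 0.27 from 12 to 14 and 0.16 from 16 to 19, and 11.4%, 6.43% and 1.76% of them were called. The brightest HSP90B1 and HSPD1 probes lay in the last of these ranges. Whether the 5′ position or the signal range had a part in the HSP90 and HSPD1 values was not tested.

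**Figure D5:**
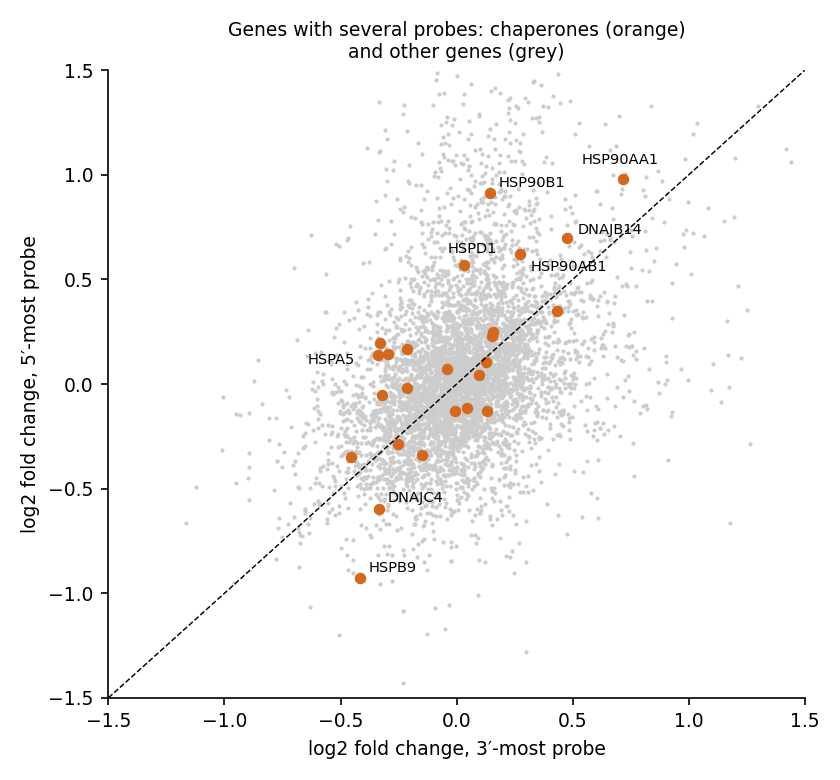
Log2 fold change (pre-miR-27a minus pre-control) of the 5′-most probe (y axis) against that of the 3′-most probe (x axis) of each gene with at least 2 probes well above background on all arrays, with 25 chaperone genes in orange and other genes in grey, 11 of which lie outside the range drawn. HSP90AA1, HSP90AB1, HSP90B1 and HSPD1 lie above the dashed line of equal change, and HSPB9 and DNAJC4 lie below it.

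Some chaperone genes bore older names on the array and so fell outside the rule. By accession, 14 kept probes of 9 genes now have an HSP or DNAJ symbol. Of these 14 probes 0 were called higher and 2 lower by limma, beside 3.95% and 3.88% of all probes. DNAJC22, named FLJ13236 in the files, was at −1.16 by one probe (limma adjusted p = 0.0220) and 0.65 by the other (adjusted p = 0.329). DNAJC30, named WBSCR18, was at −0.43 by one probe (limma adjusted p = 0.0498) and 0.03 by the other. HSPA13, named STCH, an HSP70 of the microsomes, was at 0.32 and 0.14 and was not called. These probes were left out of every count above, so DNAJC2, DNAJC24, DNAJC27, DNAJC28 and DNAJC30, which the constitutive list names, are among its genes without a value, as is DNAJC21, which the files name DNAJA5.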

How the data were processed

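RNA of RH36 cells that had received pre-miR-27a or the pre-control, 3 samples of each, was labelled with Cy3, and each sample went to its own Agilent whole genome array. The authors deposited the processed signal of every spot from Feature Extraction, an intensity corrected for background within the array and not normalized between arrays, with quality flags. They also deposited a table of log2 values, 33169 probes, whose median difference from the values computed here was 0.00411 log2 units. The per-sample columns left unused numbered 0. Where the paper's methods and the labels differ on dose and time, no value here depends on the choice.

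Control spots were left out, log2 intensities of 43376 spots an array were quantile normalized, a spot not found by the scanner software counted as missing, and spots of the same probe were averaged. A probe could lack 1 array (17%), and 36469 of 41000 remained. In R 4.3.3, limma 3.58.1 compared the groups over all probes, and p-values were adjusted by Benjamini-Hochberg, with 0.05 as the threshold. The procedure was tested on simulated arrays with independent noise, without pairs or slides, and with changes larger than most seen here. That test therefore does not show how reliable the calls on these arrays are. SAM, which the study used and calls paired in its results, was not repeated here. The number of arrays limits the precision, with median standard errors of log2 fold changes at 0.12 over members and 0.14 over all probes. Replicates are called biological in the labels, and whether they came from separate cultures is not stated, so p-values measure the spread between these arrays. No spot was saturated (0).

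Same-numbered arrays deviated together from their group means (r = 0.396, 0.456 and 0.409, across 31717 probes, and −0.266 to −0.123 between different numbers). The numbers were therefore taken to pair the arrays. The blocked value is given where it changes a call.

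The members, the lists (heat-inducible, constitutive, ER, mitochondrial, muscle, cochaperones and ER stress) and the tests were chosen with earlier results of these data known. Named genes are fixed members by role, every other called member, genes with a dimmer probe called, and the called genes of the cochaperone and ER stress lists with HSF1 and HSF2. Genes named outside this rule, among them those with a call under the block alone, were chosen after their values were seen. Gene names are those of the files, of which 98 member probes have a current symbol by accession in RefSeq. One cell type marker is not reported here. Probe positions are hg18, and RefSeq sequences are GRCh38.p14. The muscle list (HSPB1, HSPB2, HSPB3, HSPB6, HSPB7, HSPB8 and CRYAB) had 7 genes measured, 0 called higher and 1 lower (14.3%, beside 4.33% of all gene names). Its median was −0.19, beside −0.04. With the replicate block 0 were called higher and 2 lower, HSPB6 and CRYAB (28.6%, beside 8.1% of all gene names).

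Other settings were scaling to the 75th percentile, normexp with an offset of 50, all probes without a filter, probes well above background on at least 3 arrays, the replicate block, the deposited table, a variance trend with robust estimation, the mean of all probes of a gene, and each array left out in turn. The 5′-most and 3′-most probe of each gene were added after the data were seen.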

Additional observations from a re-analysis of the deposited data

How the results depend on the processing

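The number of chaperone probes called higher was 7 and became 11 with probes well above background, 12 with the replicate block, 11 with a variance trend and robust estimation, and 0 to 1 with an array left out. The number called lower was 3 and became 5 with normexp, 6 with the replicate block, 5 with the variance trend, and 0 to 2 with an array left out. By brightest probe, 1 gene was called higher, against 2 with normexp, 3 with probes well above background, 5 with the replicate block, 2 with the deposited table, 3 with the variance trend, 4 with the mean of all probes, 4 with the 5′ probe, 2 with the 3′ probe and 0 with any array left out. The 3 genes called lower became 1 with the 3′ probe and 0 to 2 with an array left out. The calls over all probes, 2856, became 5421 with the replicate block and 0 to 1276 with an array left out, and 75th percentile scaling gave 1275 higher and 1981 lower (39.2% higher, against 50.4%) and moved the median of all probes from −0.02 to −0.09. The heat-inducible median of 0.09 ran from −0.01 to 0.17 with an array left out. The constitutive median of 0.00 was −0.06 with 75th percentile scaling, 0.06 with the 5′ probe and −0.02 to 0.04 with an array left out. Of 310 values of 40 named genes and probes under alternatives with every array, 291 kept their direction and side of the threshold. The direction changed with 75th percentile scaling for HSPA9 (−0.04), HSP90B1 (−0.04), HSPD1 (−0.17), HSPE1 (−0.12), DNAJB6 (−0.07) and HSF1 (−0.11), with normexp for HSPH1 (0.01), DNAJB6 (−0.01) and HSF1 (−0.03), and with the mean of all probes for HSPA8 (0.04), HSPA5 (−0.10), HSPA4 (0.02) and DNAJB6 (0.00). With an array left out the range held both signs for HSPA1A (−0.01 to 0.25), HSPA6 (−0.29 to 0.21), HSPB2 (−0.17 to 0.11), HSPB3 (−0.76 to 0.31), HSPB7 (−0.55 to 0.10), HSPB8 (−0.18 to 0.22), HSPD1 (−0.01 to 0.07), HSPE1 (−0.06 to 0.13), HSPH1 (−0.10 to 0.09), HSPA4 (−0.15 to 0.05), DNAJB6 (−0.05 to 0.05) and DNAJB11 (−0.11 to 0.02). The smaller number of arrays is part of the drop in calls with an array left out, and the cause of the other changes was not tested. The signal over background limits HSPA1L, HSPA2, DNAJB7 and DNAJC6, which were well above background on 3 arrays or fewer.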
